A study of Mus musculus with 43 samples.

Results

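The cathepsins studied here are 10 protein-coding genes, Ctsa, Ctsb, Ctsc, Ctsd, Ctsf, Ctsh, Ctsk, Ctsl, Ctss and Ctsz, chosen by name and followed through all 43 libraries of the study, in which 55416 genes were counted. All cells came from the cerebral cortex of 3-month-old mice. Oligodendrocytes (4 control and 4 Rag2-/- libraries), oligodendrocyte precursor cells (OPCs, 6 and 5), astrocytes (6 and 6) and microglia (6 and 6) were caught in turn on antibody-coated plates from the cell suspension of each mouse, so libraries of one mouse are not independent of each other. Rag2 is needed to assemble antigen receptor genes, and mice without it make no mature B or T cells. The Rag2-/- mice carry the loss in every cell, and each was a littermate of its control, with controls of pairs 1, 2, 3 and 5 being Rag2+/- and those of pairs 4 and 6 Rag2+/+. Oligodendrocytes came from pairs 1, 3, 5 and 6, and the OPCs of the Rag2-/- mouse of pair 5 were not analysed here. The anti-CD45 plate used for microglia also binds other leukocytes, and libraries of one cell type shared a sequencing lane, so the lane and the cell type cannot be told apart.

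Cathepsins are proteases of the endosome and lysosome, made as inactive precursors, sorted to acidic compartments and activated there. Most, namely Ctsb, Ctsc, Ctsf, Ctsh, Ctsk, Ctsl, Ctss and Ctsz, cut proteins with a catalytic cysteine, while Ctsd is an aspartic protease and Ctsa a serine carboxypeptidase that also stabilises other lysosomal enzymes. In the brain, microglia take up and degrade debris and are known for a well-developed lysosomal system, and cathepsin S is widely used as a marker of them. The comparisons ask in which glial cells each cathepsin is transcribed, and whether its level differs between mice with and without lymphocytes.

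The genes lie on 7 chromosomes of the mouse genome GRCm39. Ctss (chr3:95433963-95463717, plus strand) and Ctsk (chr3:95406178-95416732, plus strand) are neighbours, 17230 bases apart. The others are Ctsa (chr2:164674778-164682961, plus), Ctsz (chr2:174267304-174280832, minus), Ctsc (chr7:87927092-87960096, plus), Ctsd (chr7:141929646-141941775, minus), Ctsh (chr9:89936205-89958148, plus), Ctsl (chr13:64507151-64518704, minus), Ctsb (chr14:63358384-63383372, plus) and Ctsf (chr19:4905118-4915986, plus). The family resemblance is plainest at the catalytic cysteine, so the coding sequence around that residue is shown here for 7 of the cysteine cathepsins, read 5′ to 3′ from the canonical transcript in GRCm39 with the cysteine codon in capitals.
Ctsb: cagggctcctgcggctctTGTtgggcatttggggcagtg
Ctsc: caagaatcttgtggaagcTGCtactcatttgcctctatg
Ctsh: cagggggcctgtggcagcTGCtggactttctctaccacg
Ctsk: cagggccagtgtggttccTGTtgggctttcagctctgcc
Ctsl: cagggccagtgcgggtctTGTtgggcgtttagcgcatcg
Ctss: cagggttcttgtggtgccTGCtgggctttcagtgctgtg
Ctsz: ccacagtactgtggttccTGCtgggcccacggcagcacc
The cysteine is encoded by TGC in 4 of these genes and TGT in 3, and 9 of the 39 bases are the same in all 7 windows. The most alike windows were those of Ctsb and Ctsl and of Ctsk and Ctsl, with 30 identical bases each. The neighbours Ctsk and Ctss shared 29 bases, and in both the codon lies in exon 5 of 8, at chr3:95409908-95409910 in Ctsk and chr3:95452659-95452661 in Ctss. The codon is in exon 4 of 10 of Ctsb, exon 5 of 8 of Ctsl, exon 6 of 12 of Ctsh, exon 6 of 7 of Ctsc and exon 2 of 6 of Ctsz.

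The libraries held 6499417 to 23118497 read pairs counted on genes, with a median of 10447042. Levels are given below as normalised CPM, the count of a gene scaled to a common library size and then by TMM over all libraries, which evens out differences in composition between libraries. Mitochondrial genes took 6.76% to 11.7% of the counts in microglia, 22.4% to 36.7% in OPCs, 22.5% to 45.1% in astrocytes and 45.8% to 60.1% in oligodendrocytes. The 8 microglia markers used here were Cx3cr1, P2ry12, Tmem119, Csf1r, Aif1, C1qa, Fcrl2 and Itgam. Their summed CPM was 8263 to 10680 in microglia, 330 to 1197 in oligodendrocytes, 175 to 883 in OPCs and 64.4 to 306 in astrocytes. Every other cell type thus held RNA of these markers, and its source was not tested. Astrocyte markers summed to 2081 to 5783 CPM in OPCs against 18250 to 22020 in astrocytes. Oligodendrocyte markers summed to 3303 to 6216 CPM in astrocytes against 26230 to 35460 in oligodendrocytes. Neuron markers summed to 550 to 2898 CPM in oligodendrocytes. The part of such RNA in the differences between these cell types below was not tested. Border macrophage and monocyte markers summed to 365 to 883 CPM in control microglia and 419 to 759 in Rag2-/- microglia, and their part in the results below was not tested. Rag2 itself, the targeted gene, was at 0 counts in all 21 Rag2-/- libraries but also in 19 of the 22 controls, the highest of which had 4, so its count does not check the genotype.

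Microglia held by far the most cathepsin RNA. The 10 genes together made up 6286 to 8551 CPM in each microglia library and 458 to 1369 CPM in each library of the other cell types, with no overlap. In control mice, Ctsa, Ctsb, Ctsc, Ctsd, Ctsh, Ctsl, Ctss and Ctsz were each at least 4-fold higher in microglia than in OPCs, in oligodendrocytes and in astrocytes (edgeR's quasi-likelihood test with sex as covariate, Benjamini-Hochberg adjusted p under 0.05). Those 8 of 10 genes compare with 13.5% of all tested genes at least 4-fold higher in microglia than in OPCs, 15.3% against oligodendrocytes and 14.3% against astrocytes. With no minimum on the fold, 9, 9 and 8 cathepsins were higher in microglia, against 28.6%, 29.7% and 29.1% of all genes. Of those lower in microglia there were none against OPCs (background 32.2%), Ctsk against oligodendrocytes (29.4%) and Ctsf against astrocytes (32.0%). The same 8 genes were at least 4-fold higher in microglia of Rag2-/- mice against OPCs (background 13.5%) and astrocytes (14.4%), and Ctsf joined them against oligodendrocytes (17.5%). With no minimum on the fold the counts in Rag2-/- mice were 9, 9 and 8 higher, against 27%, 30.6% and 28.4% of all genes, and Ctsk against oligodendrocytes was the one lower (background 28.4%, and 31.7% and 32.0% against astrocytes and OPCs, where none was lower).

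Cathepsin S, the endopeptidase that trims the invariant chain of MHC class II, had the highest CPM of the 10 in microglia. Its lowest, median and highest CPM were 1869, 2218 and 2467 in control microglia and 1565, 2161 and 2253 in Rag2-/- microglia. Oligodendrocytes of the control mice of pairs 1, 3, 5 and 6 had 116, 256, 113 and 72.7 CPM, and those of the Rag2-/- mice 84.2, 267, 140 and 100.5 CPM. The libraries of pair 3 were the highest in both genotypes, and all lay far below the microglia libraries. Astrocytes had the least Ctss, from 19.2 to 63.0 CPM. In control mice the log2 fold change of microglia was 4.55 over OPCs (SE 0.34, adjusted p = 4.73e-11), 4.13 over oligodendrocytes and 5.97 over astrocytes (SE 0.36, adjusted p = 1.08e-12).

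Ctsh and Ctsc, an aminopeptidase and a dipeptidyl peptidase that activates the granule serine proteases of leukocytes, were lower in level than Ctss and were also far higher in microglia than elsewhere. Ctsh was at 233 ± 56.3 CPM (mean ± SD, n = 6) in control microglia and 4.15 ± 2.71 in control astrocytes, with a log2 fold change of 5.81, and the fold was 4.72 over OPCs and 4.45 over oligodendrocytes. Ctsc was at 186 ± 38.1 CPM in control microglia against 6.76 ± 1.75 in astrocytes, a log2 fold change of 4.82. Over OPCs and oligodendrocytes the log2 fold changes of Ctsc were 4.33 and 3.74.

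Ctsd, Ctsb and Ctsa were also highest in microglia and, like every cathepsin studied here, were counted in every library of the other cell types. Ctsd, the main aspartic protease of lysosomes, ranged from 1089 to 1628 CPM in control microglia, with a median of 1376, and from 1245 to 1609 in Rag2-/- microglia. Control oligodendrocytes ranged from 98.1 to 244 CPM, OPCs from 96.4 to 214 and astrocytes from 128 to 174, so these 3 cell types overlapped each other and not the microglia. Ctsb, a cysteine protease with both endopeptidase and carboxypeptidase activity, was at 1764 ± 158 CPM in control microglia and between 247 and 264 on average in the other control cells. Its log2 fold changes of 2.93 over OPCs, 2.83 over oligodendrocytes and 2.79 over astrocytes were nearly equal, as were those of Ctsd at 3.53, 3.25 and 3.19. Ctsa was at 578 ± 64.7 CPM in control microglia, 3.31, 2.91 and 2.72 higher on the log2 scale in the same order.

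Ctsz, a carboxypeptidase, and Ctsl, an endopeptidase, completed the group. Ctsz was at 395 ± 61.0 CPM in control microglia against 20.7 ± 13.1 in oligodendrocytes, 20.9 ± 8.09 in OPCs and 34.7 ± 5.46 in astrocytes. Ctsl had 992, 935, 1186, 763, 696 and 573 CPM in the control microglia of pairs 1 to 6, and 785, 649, 682, 634, 638 and 575 in those of Rag2-/- mice. The groups of the 2 genotypes overlap, and the 3 highest control libraries are those of pairs 1, 2 and 3. Of the 8 genes, Ctsl had the smallest log2 fold change over astrocytes, 2.29 in control mice and 2.08 in Rag2-/- mice.

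**Figure D1:**
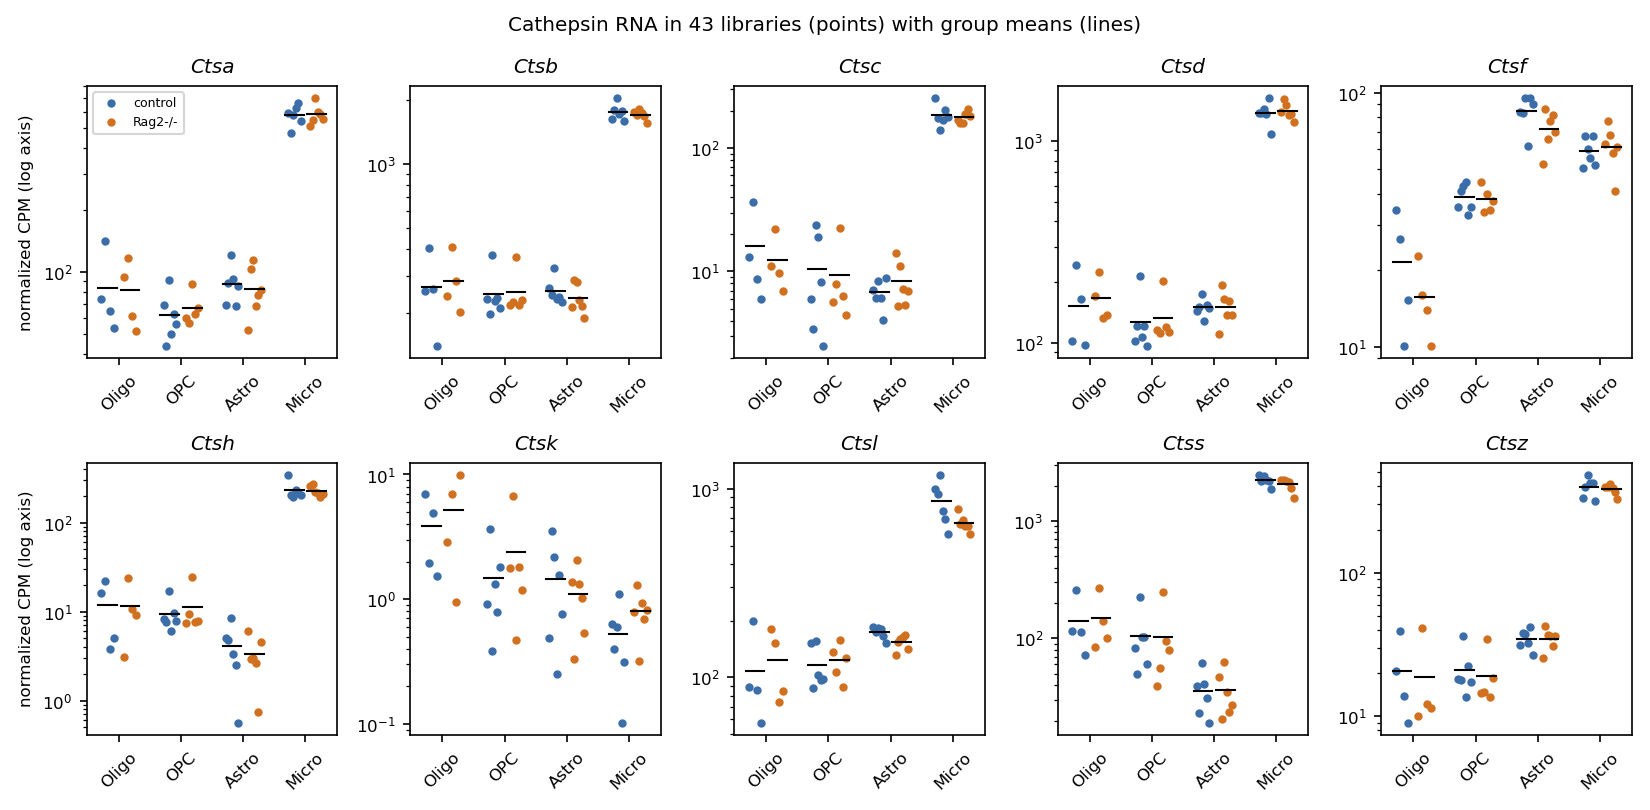
Normalised CPM of each of the 10 cathepsins on a log axis, with 1 point per library, by cell type and genotype. In 8 panels all microglia points lie above the points of the other cell types, while the Ctsf points of microglia lie among or below those of astrocytes and the Ctsk points of microglia lie low. The share of all genes set apart in this way is not given here.

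Ctsf, a cysteine protease with a long propeptide that is known from a hereditary neuronal ceroid lipofuscinosis, followed another order. Astrocytes had 84.3, 83.3, 95.1, 61.5, 95 and 90.5 CPM in the control mice of pairs 1 to 6 and 52.4, 86.1, 66.0, 77.4, 81.5 and 70.1 in the Rag2-/- mice. Microglia ranged from 50.7 to 67.6 CPM in control mice and from 40.9 to 77.7 in Rag2-/- mice, so the microglia and astrocyte ranges overlapped in control mice through the astrocytes of pair 4 alone, and widely in Rag2-/- mice. OPCs were at 33.0 to 44.6 and oligodendrocytes at 10.0 to 34.5 CPM in control mice. In control mice each step down this order passed the test. Microglia were 0.54 lower than astrocytes (log2 scale, adjusted p = 0.0223, with 32.0% of all genes lower in microglia), microglia 0.69 higher than OPCs (adjusted p = 0.00453) and oligodendrocytes 0.84 lower than OPCs (adjusted p = 0.00882, with 15.2% of all genes lower). The step from astrocytes to microglia did not pass in Rag2-/- mice (adjusted p = 0.205). In control mice it was lost without scaling by TMM (log2 fold change -0.29, adjusted p = 0.295) and without 1 of 6 libraries, which were astrocyte replicates 1, 2, 3, 5 and 6 and microglia replicate 1, with an adjusted p of up to 0.0909. The step from OPCs to oligodendrocytes was lost without oligodendrocyte replicate 5 or 6, with an adjusted p of up to 0.0742, and that from microglia to OPCs was lost only in the fit without TMM (0.47, adjusted p = 0.0868).

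Ctsk, the collagen-degrading protease of osteoclasts, was the one cathepsin lower in microglia than in another glial cell by at least 4-fold. Microglia had 1 to 14 counts of Ctsk in a library, which is 0.52 ± 0.34 CPM in control mice and 0.81 ± 0.32 in Rag2-/- mice. Control oligodendrocytes had 6.97, 1.94, 4.92 and 1.53 CPM in pairs 1, 3, 5 and 6, and Rag2-/- oligodendrocytes 2.89, 7.02, 0.94 and 9.92. The values are scattered and the pairs with high and low levels are not the same in the 2 genotypes. The log2 fold change of microglia against oligodendrocytes was -2.72 in control mice (SE 0.74, adjusted p = 0.00283) and -2.62 in Rag2-/- mice (adjusted p = 0.00317), beside 20.6% and 19.5% of all genes at least 4-fold lower. Without TMM the difference still passed in both genotypes but was under 4-fold in each. Markers of mural cells and fibroblasts, in which Ctsk is known, summed to 14.8 to 130 CPM in control oligodendrocytes, 111 to 289 in control OPCs and 25.9 to 54.5 in control microglia. Their part in the Ctsk levels was not tested.

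Among the macroglial cells, a few cathepsins differed between astrocytes and cells of the oligodendrocyte lineage. Apart from the 4 higher in astrocytes than OPCs in control mice, the counts were near the share of all genes. Those counts are not read as a trait of the cathepsins. Against OPCs in control mice, 4 cathepsins were higher in astrocytes (Ctsf by 1.22 on the log2 scale, Ctsz by 0.83, Ctsl by 0.69 and Ctsa by 0.59, background 14.4%) and 2 were lower (Ctss, -1.42, and Ctsh, -1.09, background 16.2%). The microglia markers were lower in astrocytes as well, summing to 64.4 to 306 CPM against 175 to 883 in OPCs and 330 to 1197 in oligodendrocytes, and their part in the Ctss and Ctsh differences was not tested. In Rag2-/- mice 2 were higher (Ctsf and Ctsz, background 11.7%) and 2 lower (Ctsh and Ctss, background 13.9%). Against oligodendrocytes in control mice, Ctsf (2.07), Ctsz (0.84) and Ctsl (0.81) were higher in astrocytes, beside 18.7% of all genes, and Ctss (-1.84) and Ctsh (-1.36) lower, beside 19.4%. In Rag2-/- mice Ctsf (2.30), Ctsz (1.05) and Ctsl (0.46) were higher, beside 20.4%, and Ctsh, Ctss (-1.99) and Ctsk (-2.09) lower, beside 19.2%. Between oligodendrocytes and OPCs, no cathepsin was higher in oligodendrocytes (background 12.4% in control mice and 11% in Rag2-/- mice) and Ctsf alone was lower in both genotypes (-0.84 and -1.27, background 15.2% and 16.8%). Fitting the mouse as a block added 1 call, Ctsd in astrocytes over OPCs in control mice (0.39, adjusted p = 0.0418). In Rag2-/- mice, Ctsl passed in astrocytes over OPCs with DESeq2 (0.47, adjusted p = 0.0243) and with its size factors (0.47, adjusted p = 0.0369). It also passed there with mitochondrial genes left out (0.46, adjusted p = 0.0410). In control mice, Ctsc passed as lower in astrocytes than oligodendrocytes with DESeq2 (-1.12, adjusted p = 0.0430).

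The calls of Ctsf and Ctss between astrocytes and the oligodendrocyte lineage held without any 1 library, while several of the smaller ones did not. In control mice, Ctsa over OPCs was lost without any of astrocyte replicates 2 to 6, microglia replicate 1 or oligodendrocyte replicate 1 (adjusted p up to 0.123), and Ctsl over OPCs without astrocyte replicate 1, 2, 4 or 5 (up to 0.0667). Ctsz over OPCs was lost without astrocyte replicate 2 or 5 (up to 0.0644). Ctsh below OPCs was lost without 1 of 9 libraries, namely astrocyte replicates 1, 4, 5 and 6, microglia replicates 4 and 5 and OPC replicates 2, 3 and 5 (up to 0.121). Against oligodendrocytes, Ctsh was lost without oligodendrocyte replicate 3 in either genotype (0.108 in control and 0.0506 in Rag2-/- mice). Ctsl was lost without astrocyte replicate 2 or oligodendrocyte replicate 1, 5 or 6 in control mice (up to 0.110). Ctsz was lost there without any 1 astrocyte library, microglia replicate 1 or oligodendrocyte replicate 1, 5 or 6 (up to 0.206), and in Rag2-/- mice without oligodendrocyte replicate 1, 5 or 6 (up to 0.0811). In Rag2-/- mice, Ctsk was lost without astrocyte replicate 2 or 6 or oligodendrocyte replicate 3 or 6 (up to 0.0788). Ctsl was lost there without 1 of 11 libraries, which were astrocyte replicates 2 to 6, microglia replicates 1 to 3, oligodendrocyte replicates 5 and 6 and OPC replicate 2 (up to 0.446), and also with DESeq2 (0.40, adjusted p = 0.0663), with its size factors (0.40, adjusted p = 0.0748) and with no filter on low counts (0.40, adjusted p = 0.125). Without TMM, the calls of Ctsa, Ctsl and Ctsz over OPCs and of Ctsh below oligodendrocytes in control mice, and those of Ctsf and Ctsz over OPCs and of Ctsk below oligodendrocytes in Rag2-/- mice, did not pass (adjusted p from 0.0625 to 0.754).

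Since every library held RNA of the microglia markers, the level of each cathepsin outside microglia was set beside that of these 8 genes. Both were taken as a percent of their microglia mean. In control mice the mean levels of the markers stood at 4.83% to 10.9% in oligodendrocytes, 3.63% to 5.23% in OPCs and 0.88% to 2.45% in astrocytes. Ctss stood at 6.25%, 4.66% and 1.61% and Ctsh at 5.08%, 4.02% and 1.78% in the same order, within the range of the markers in every cell type. Ctsa at 14.4%, 10.8% and 15.1%, Ctsb at 15%, 14% and 14.4%, Ctsd at 11%, 9.18% and 10.9%, and Ctsl at 12.6%, 13.5% and 20.2% stood above the highest marker in all 3. Ctsc (3.64%) and Ctsz (8.79%) stood above the markers in control astrocytes as well, whereas in oligodendrocytes at 8.64% and 5.23% they were among the markers. In control OPCs they stood at 5.65% and 5.29%, just above the highest marker, and in Rag2-/- OPCs they were not above it. Without the library of pair 3 they stood at 4.2% and 4.51% in control OPCs. The marker range given here includes that library, so these values cannot be placed against it. Ctsf stood at 36.6%, 65.8% and 144%. These are group means, and single libraries of Ctsa, Ctsb, Ctsd and Ctsl overlapped with single libraries of the markers in oligodendrocytes and OPCs and not in astrocytes. In a pool of cells, fewer cells of a type and less RNA per cell cannot be told apart.

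**Figure D2:**
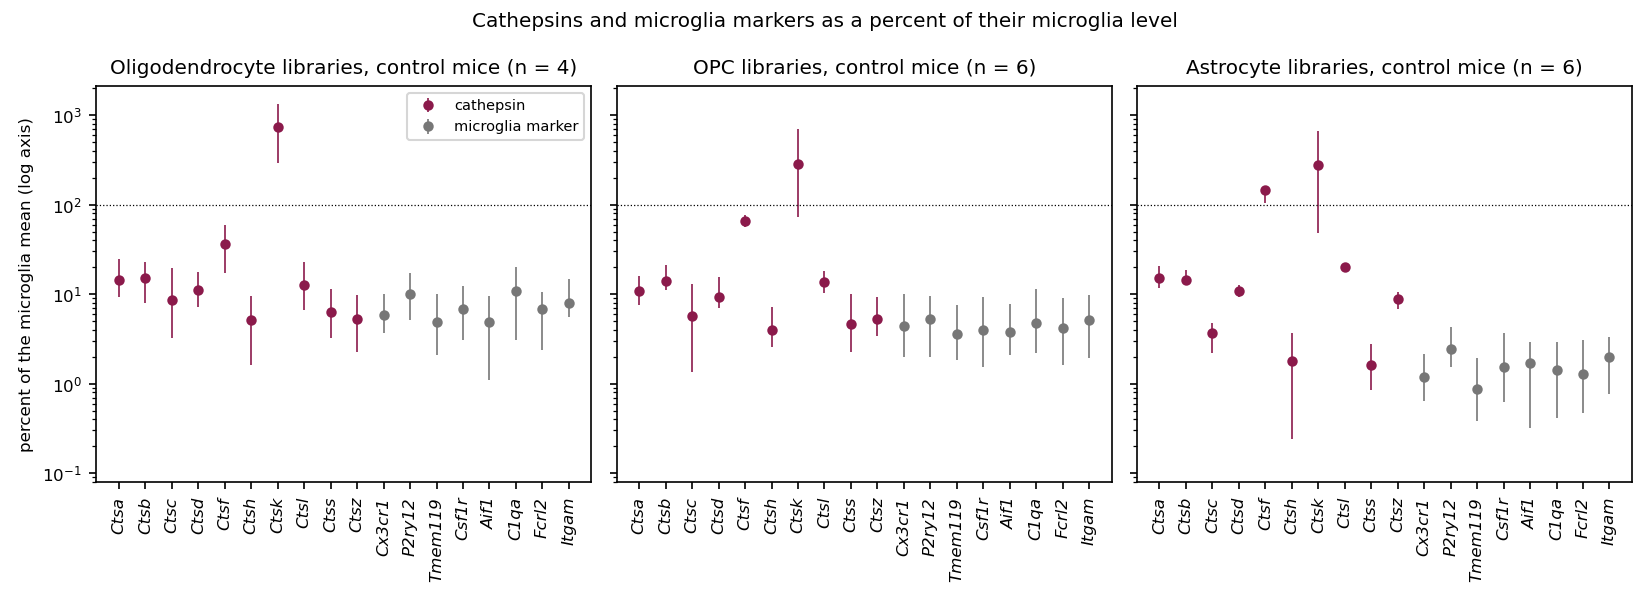
Level of each cathepsin and of each of the 8 microglia markers in control oligodendrocytes, OPCs and astrocytes, as a percent of its mean in control microglia, on a log axis, with the mean as a point and the range over libraries as a line. Ctss and Ctsh lie among the markers, and Ctsa, Ctsb, Ctsd, Ctsf, Ctsk and Ctsl have means above that of the highest marker in all 3 cell types.

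Within each of these cell types the summed marker level varied between libraries, and some cathepsins varied with it. Of 30 relations tested by permutation and adjusted together, that of Ctss passed in all 3 cell types by Pearson's r. These tests treat libraries as independent, although littermates resemble each other and both OPC libraries of pair 3 hold the highest OPC marker sums, so the p-values may be too small. Its Pearson r was 0.99 in OPCs (n = 11, Spearman's rho 0.97, permutation, adjusted p = 0.00015), 0.97 in astrocytes (n = 12, Spearman's rho 0.97, permutation, adjusted p = 0.00015) and 0.95 in oligodendrocytes (n = 8, exact permutation test, adjusted p = 0.0151). By rank, Ctss did not pass in oligodendrocytes (rho 0.79, exact permutation test, adjusted p = 0.105), where no cathepsin did, and in OPCs only Ctsb, Ctsc and Ctss passed. Without the 2 libraries farthest from the median marker sum, r was 0.96, 0.94 and 0.61. In OPCs Pearson's r also passed for Ctsa, Ctsb, Ctsc, Ctsd, Ctsh and Ctsz, and in oligodendrocytes for Ctsa, Ctsb, Ctsc, Ctsd and Ctsz. In OPCs r stayed at 0.72 for Ctsb and 0.70 for Ctsc without the 2 farthest libraries, but was 0.27 for Ctsa, 0.12 for Ctsd, -0.04 for Ctsh and 0.22 for Ctsz, whose relations rest on those 2 libraries. In oligodendrocytes r stayed at 0.65 for Ctsb and 0.69 for Ctsd, but was -0.09 for Ctsa, 0.01 for Ctsc and 0.07 for Ctsz. Ctsf, Ctsk and Ctsl passed in none of the cell types.

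**Figure D3:**
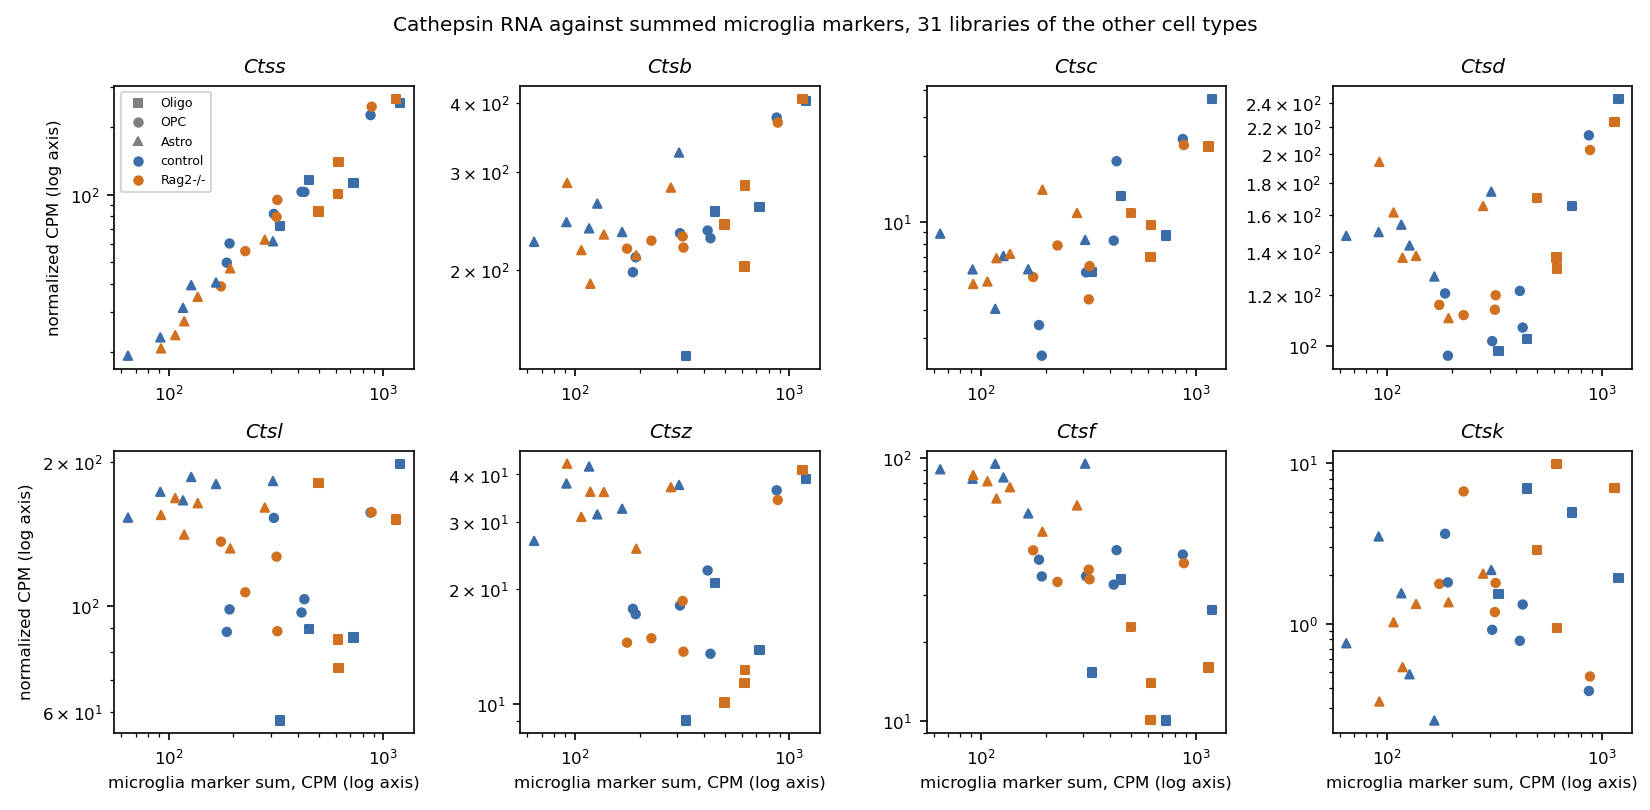
CPM of Ctss, Ctsb, Ctsc, Ctsd, Ctsl, Ctsz, Ctsf and Ctsk against the summed CPM of the 8 microglia markers in each oligodendrocyte, OPC and astrocyte library, on log axes, with shapes for cell types and colours for genotypes. Ctss rises with the marker sum within each cell type, while Ctsf shows no such course.

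Both OPC libraries of pair 3 stood apart from the other OPC libraries. Their marker sums were 872 CPM in the control and 883 in the Rag2-/- mouse, against 186 to 428 and 175 to 320 in the others. Ctss was at 226 and 246 CPM there and at 49.8 to 103 and 39.1 to 94.7 in the others, so that without them the OPC mean was 79.6 in control mice and went from 103 to 67.4 in Rag2-/- mice. The mean of Ctsb moved from 247 to 221 in control and from 252 to 223 in Rag2-/- OPCs. The Ctsf level of pair 3 was 1.13 and 1.06 times the mean of the other OPC libraries, so Ctsf did not share their excess, and Ctsk was lower there, at 0.23 and 0.16 times. Leaving out replicate 3 from the control or the Rag2-/- OPCs lost no call of microglia against OPCs.

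Levels were also counted per kilobase of exon, with the exons of all annotated transcripts of a gene joined. This length was 2767 bases for Ctsd and 5305 for Ctss, and it can exceed that of the RNA present. The order of genes and their shares therefore depend on the annotation. By this measure Ctsd led in control microglia with 499 CPM per kb, followed by Ctss, which had the higher CPM, with 421. Ctsb had 230, Ctsl 129, Ctsa 112, Ctsz 107, Ctsh 46.6, Ctsc 29.7, Ctsf 6.01 and Ctsk 0.18. Ctsd also took the largest share of the summed cathepsin level per kb in each cell type, 31.6% ± 2.01 in control microglia, 34.5% ± 5.91 in oligodendrocytes, 32.6% ± 3.51 in OPCs and 34.5% ± 2.10 in astrocytes. The share of Ctss was 26.7% ± 1.10 in control microglia and 4.22% ± 1.42 in astrocytes, with libraries of 24.9% to 28.3% and 2.51% to 6.10%. Astrocytes had larger shares of Ctsl, 16.6% ± 1.52 against 8.07% ± 1.59, and of Ctsf, 5.52% ± 0.79 against 0.38% ± 0.05, and neither pair of ranges overlapped. Ctsb took 14.6% ± 1.11 in control microglia and 21% to 23.1% on average elsewhere. In Rag2-/- mice the shares of Ctss were 25.4% ± 1.60 in microglia and 4.61% ± 2.04 in astrocytes.

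**Figure D4:**
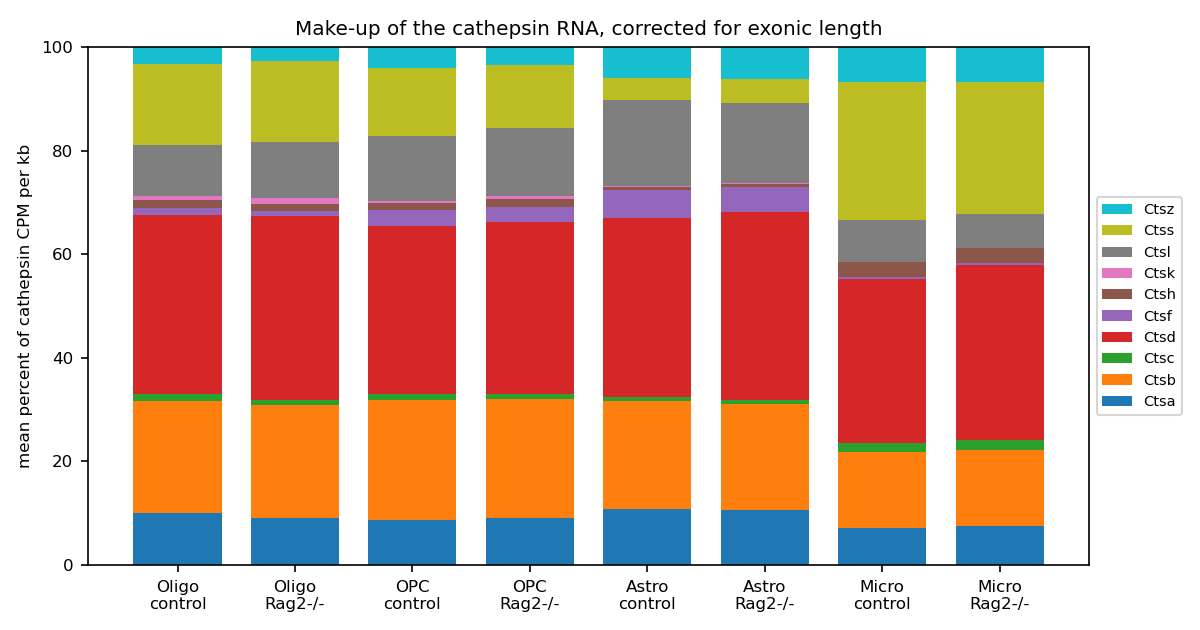
Share of each cathepsin in the summed cathepsin CPM per kb of exon, in percent, by cell type and genotype, as the mean over libraries. The Ctss share is 26.7% in control microglia and 4.22% in control astrocytes, and Ctsd takes between 31.6% and 36.2% in every group.

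The promoters, from 250 bases before to 50 bases after the start of each canonical transcript, were searched on both strands for letters bound by factors of the lysosome and of myeloid cells. The CACGTG and GGAAGT matches are shown with the motif in capitals, in its longer form where that was found, so that their letters and their distance from the start can be compared. CACGTG is the core read by the TFEB family of lysosomal regulators, and GTCACGTG a longer form that contains it. GGAAGT, within the longer GAGGAAGT, is the core of ETS factors such as PU.1. The GTCACGTG matches of Ctsb and Ctsd and the Ctss match are on the opposite strand, so they read CACGTGAC and ACTTCCTC below.
Ctsb promoter, first capital at base 15 from the start: tcaagcatCACGTGACgaatcagc
Ctsd promoter, first capital at base -34 from the start: ccttccccCACGTGACctgtatcc
Ctsf promoter, first capital at base -4 from the start: ccgtggtcCACGTGcctcgcgt
Ctss promoter, first capital at base 7 from the start: gaaagttcACTTCCTCattgtgga
CACGTG was in 3 of the 10 cathepsin promoters (Ctsb, Ctsd and Ctsf) and in 7.86% of 21614 promoters, and GTCACGTG in those of Ctsb and Ctsd and in 2.56% of promoters. GGAAGT was in 1 of the 10 and 24.1% of promoters, and GAGGAAGT in 1 and 3.09%, in both cases Ctss. TATAAA was found in Ctss alone, at base -225, and in 13.2% of promoters, and the AP-1 letters TGANTCA in none of the 10 and 7.16% of promoters.

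The comparison of Rag2-/- with control mice within each cell type asked whether any cathepsin responds to the lack of lymphocytes. None of the 10 cathepsins passed the test in oligodendrocytes, OPCs or astrocytes, and none of the 9 tested passed in microglia, where the counts of Ctsk were too low to enter the test (edgeR's quasi-likelihood test with sex as covariate). The background in edgeR was as low, with 0.0% of all genes called in oligodendrocytes, 0.00592% in OPCs, 0.00667% in microglia and 0.00679% in astrocytes. DESeq2 also called no cathepsin, and the share of all genes it called is not given here. The authors, with DESeq2, reported more genes differing by genotype in oligodendrocytes than in the other cell types. At an unadjusted p under 0.05 there was 1 cathepsin in microglia (Ctsl, with 2.9% of all genes), 1 in astrocytes (Ctsf, with 2.87%) and 0 in OPCs (4.02%) and oligodendrocytes (3.38%).

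The Ctsl level in microglia, given by library above, averaged 858 ± 223 CPM in control and 661 ± 70.4 in Rag2-/- mice. The log2 fold change was -0.36 (SE 0.138, 95% interval -0.65 to -0.07, adjusted p = 0.999), and the control libraries spread more widely than the Rag2-/- ones. Ctsf in astrocytes differed by -0.28 on the log2 scale (SE 0.128, 95% interval -0.55 to -0.01, adjusted p = 1.00), and the ranges overlapped through the control library of pair 4 and the Rag2-/- library of pair 2. The cathepsin with the smallest p in oligodendrocytes was Ctsl, at 0.29 (95% interval -0.45 to 1.03), and in OPCs Ctsk, at 0.47 (95% interval -0.87 to 1.81). The sign of the Ctsk difference turned without Rag2-/- replicate 2 (-0.051), which had 6.67 CPM against 0.47 to 1.80 in the other Rag2-/- OPC libraries.

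The intervals bound what these libraries can show. Over the cathepsins, fitted genotype differences ran from -0.36 to 0.04 in microglia, from -0.36 to 0.38 in astrocytes, from -0.14 to 0.47 in OPCs and from -0.19 to 0.36 in oligodendrocytes, on the log2 scale. The narrowest interval was that of Ctsb in microglia, from -0.23 to 0.15, and the widest that of Ctsk in oligodendrocytes, from -1.73 to 2.43. A joint fit of the 43 libraries called the genotype effect different between cell types for 0 of 10 cathepsins, with Ctsl having the smallest adjusted p of 0.787, beside 0.248% of all genes.

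**Figure D5:**
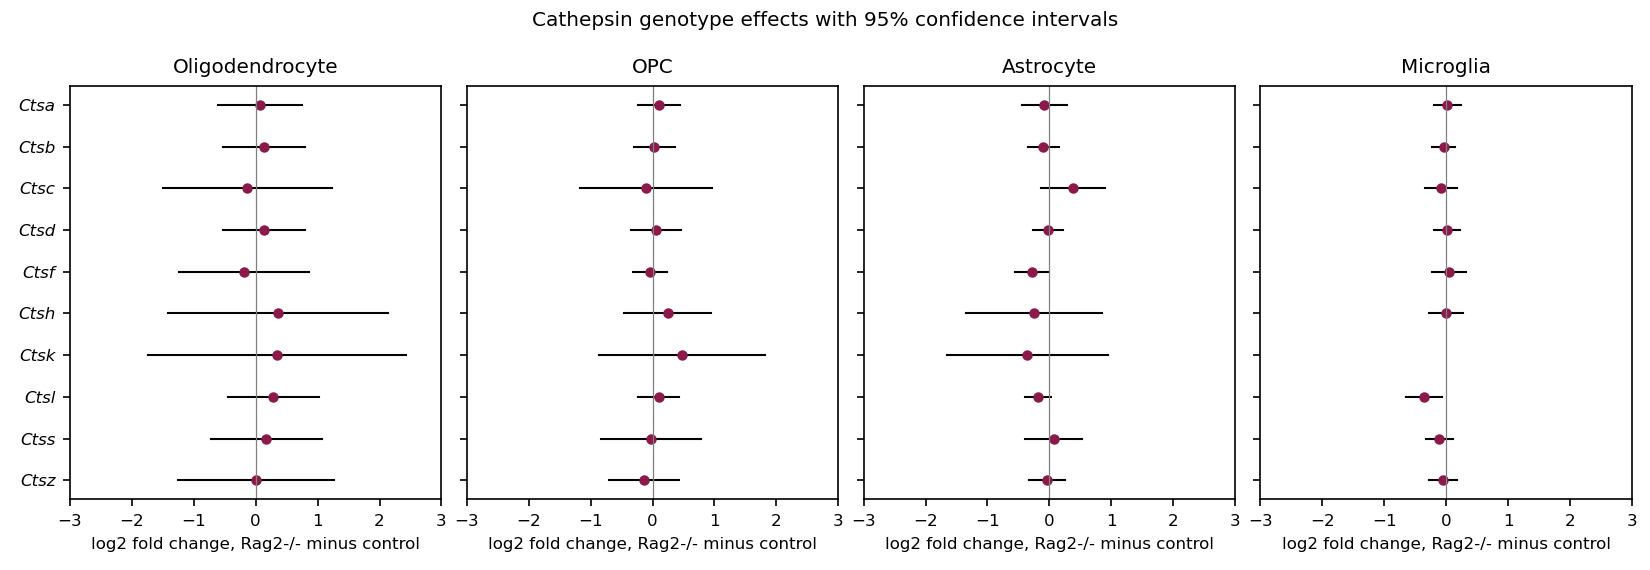
Log2 fold change of Rag2-/- against control mice for each cathepsin in each cell type, with 95% intervals from edgeR. Those of Ctsl in microglia and Ctsf in astrocytes lie just below 0, the other intervals include 0, and none passed after adjustment over all genes.

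Sex was the other term of these fits, with 5 female and 7 male libraries in astrocytes and in microglia, 4 and 7 in OPCs and 3 and 5 in oligodendrocytes. No cathepsin was called by sex, beside 0.0467% of all genes in microglia, 0.0407% in astrocytes, 0.0296% in OPCs and 0.0362% in oligodendrocytes. At an unadjusted p under 0.05 there were 2 cathepsins, both in astrocytes and lower in females, beside 6.73% of all genes there, and 0 in oligodendrocytes (8.23%), OPCs (4.3%) and microglia (3.92%). Ctss was at 20.7 to 31.4 CPM with a median of 23.7 in female astrocytes and at 19.2 to 63.0 with a median of 40.6 in male astrocytes, a log2 difference of -0.79 (SE 0.228, adjusted p = 0.710). Ctsc differed by -0.74 (SE 0.256, adjusted p = 0.716). The microglia marker sum of these libraries was 91.2 to 118 CPM in females and 64.4 to 306 in males, and its part in the difference was not tested. With no filter on low counts, the Ctss difference passed the threshold in astrocytes (-0.79, adjusted p = 0.00371) and in OPCs (-0.72, adjusted p = 0.00175). The share of all genes called by sex in that setting is not given here. In astrocytes the fitted difference was nearly the same with the filter, and every astrocyte library held 159 or more counts of Ctss. Why these passes depend on the filter was not tested, and no sex difference is claimed from them. Both OPC libraries of pair 3 are male, and the marker sum of the OPC libraries was 186 to 415 CPM in females and 175 to 883 in males.

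Genes that act with the cathepsins were read in the same contrast, control microglia against the mean of the other cell types, in which 9 of the 10 cathepsins were higher and Ctsk lower, beside 33.4% of all genes higher and 33.7% lower. The median log2 difference of the cathepsins was 3.15, beside -0.02 over all genes tested. In Rag2-/- mice 9 were also higher and Ctsk lower, beside 33.4% and 32.8% of all genes, with a median of 3.14. Of 4 cathepsin inhibitors, 3 were tested and all were higher in microglia, namely Cst7 (4.15), Cstb (3.19) and Cst3 (2.87). Cst3, which encodes the secreted inhibitor cystatin C, was at 12220 ± 1357 CPM in microglia and 3326 ± 310 in astrocytes. Of 9 genes that sort or process cathepsins, 5 were higher and 4 lower, with a median of 0.70. Legumain, encoded by Lgmn, which cleaves cathepsin precursors, was higher by 3.74, at 690 CPM in microglia against 38.5 to 86.8 on average in the other cells. Gnptab, which makes the mannose 6-phosphate tag that carries precursors to the lysosome, was lower in microglia (-1.25), as was the sorting receptor gene Sort1 (-1.06), whereas Nagpa, which uncovers that tag, was higher (2.28). The mean of Sort1 in control microglia, 78.4 CPM, was above that of OPCs (61.0) and below those of astrocytes (213) and oligodendrocytes (361).

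Other lysosomal genes were mostly higher in microglia too, and by less than most cathepsins. Among 18 other hydrolases and their partners 14 were higher and 2 lower, with a median log2 difference of 1.79. Grn, the progranulin gene, was higher by 3.43, and the 2 genes lower in microglia were Smpd1, at -1.76, and Gaa, at -0.29. In Rag2-/- mice Gaa was at -0.05 and did not pass. Its control mean was 65.2 CPM in microglia and 59.7 in oligodendrocytes, so it was not lower against each cell type. Of 11 genes for the lysosomal membrane and its acidification 10 were higher, with a median of 0.98 and a highest value of 1.68 for the cystine transporter gene Ctns, and Npc1 did not pass (0.13, adjusted p = 0.368). The lysosomal transcription factor genes Tfe3 (3.11), Tfeb (1.35) and Mitf (1.13) were all higher. Against oligodendrocytes alone, 2 of these 3 passed in control mice, and Mitf averaged 20.7 CPM in microglia and 17.2 in oligodendrocytes. Of the other cathepsin genes, Ctso did not pass (-0.18, adjusted p = 0.288), at 98.4 CPM in astrocytes and 38.4 in microglia, and Ctse, although called higher, averaged 0.79 CPM in control microglia, 1.55 in oligodendrocytes and 0.01 in OPCs and was at 0 in astrocytes. No gene of these lists was called by genotype in microglia.

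Across all 43 libraries, the genes whose levels ran most like those of each cathepsin were sought among 11653 genes whose mean count was 50 or more, which leaves out Ctsk. These correlations of log2(CPM + 1) describe mainly the difference between cell types, which the libraries share. Ctss ran most like Csf1r (r = 0.996), C1qb (0.993) and Tyrobp (0.992), which are markers of microglia and other myeloid cells. Ctsh ran most like Fcgr3 (0.980), Rel (0.976) and Ctss. Ctsa, Ctsb and Ctsd ran with each other, Ctsa most like Ctsd (0.986) and Ctsb (0.982), and Ctsb and Ctsd both most like Sqstm1 (0.995 and 0.990), the gene of the autophagy receptor p62. Ctsc ran most like Baz1a (0.974), Ctsz most like Plekho2 (0.977), and Ctsl most like Ifrd1 (0.968). Ctsf had the loosest likeness, with Mir99ahg (0.906), Pttg1ip (0.899) and Gem (0.892). Within the 12 microglia libraries alone, Ctsb and Ctsz were most like each other (0.926) and Ctsl was most like Eif4e (0.966).

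Some counts may include reads of overlapping genes, or lack reads shared with them. The mode and strand setting of the counting are not given in the sources used here. The exons of Ctsa overlap genes of the opposite strand (Neurl2 and Pltp) over 36.9% of their length, those of Ctsz over 29.2% (Nelfcd), those of Ctsb over 15.4% (Fdft1, at 192 CPM in astrocytes and 17 in microglia) and those of Ctsf over 13.8% (Actn3, which had at most 17 counts in a library). The genes that overlap Ctsd and Ctsl had 0 counts in every library. For Ctsd the overlap with Gm49369 is on the same strand and covers 29.2% of its exons. A counting mode that leaves out shared reads would also give 0 counts there, so a loss of Ctsd reads cannot be told. Ctsc, Ctsh, Ctsk and Ctss overlap no other gene.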

How the data were processed

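Glia of 3-month-old Rag2-/- mice and control littermates were immunopanned from cortex, their RNA was amplified, and 43 libraries were sequenced by the authors. They aligned reads with STAR 2.7.8a to GRCm39 and deposited HTSeq counts per gene, which are whole numbers without normalization. The counting mode and strand setting are not given in the sources used here. Amplification without molecular identifiers multiplies molecules before counting, so low counts vary by more than counting error. Read pairs on no gene (33.5% to 52.0% of a library) were left out. Names and coordinates came from GENCODE annotation M39, which named 54749 of 55416 identifiers, and promoter starts and coding windows from its canonical transcripts.

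Counts were scaled by TMM, and genes past edgeR's filter (a minimum count of 10 and total of 15) were tested with edgeR 4.0.16 in R 4.3.3 by the quasi-likelihood F test, with Benjamini-Hochberg adjustment over all genes tested and a threshold of 0.05. Cell types were compared in pairs separately in control and in Rag2-/- mice, and microglia also with the mean of the others. A second rule asked for at least a 4-fold difference. Genotype and sex were fitted together in each cell type, as in the authors' model, and a joint fit tested whether the genotype effect differed between cell types. Correlations with the marker sum were tested with 100000 permutations or exactly. Python 3.11.15 with numpy 2.4.6, pandas 2.3.3, scipy 1.17.1 and matplotlib 3.10.9 assembled the values. The tests were first checked on simulated data. The smallest chi-square between replicates was 8.18 per gene, so each library was counted once. The labels number littermate pairs. Between littermates, the mean correlation of deviations from the group means over genes was 0.24 for astrocytes, 0.22 for OPCs and 0.15 for both microglia and oligodendrocytes, and between other libraries it was -0.05 to -0.03.

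The cathepsins, related gene lists and markers were chosen with earlier results of these data known. Alternatives were DESeq2 1.42.0, its size factors, total counts without TMM, no filter, and a replicate block (littermate pair or mouse). Others were mitochondrial genes left out, no term for sex, Rag2+/- controls alone and each library left out. Leaving out both OPC libraries of pair 3 was added after seeing the data. Genes were named as members of the family, as members of those lists with the most extreme changes, or as the 3 most alike genes, and 1 gene and 1 sequence these rules cover are not reported here.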

Additional observations from a re-analysis of the deposited data

Results flagged for a closer look

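In 14 of 80 groups of 4 to 6 libraries, 1 library lay further from the others than Dixon's 95% critical value, where chance flags about 5% of groups. That 5% holds for independent groups of normal values, whereas the cathepsins share their libraries. The share of all genes flagged in this way is not given here. Of the 14 flagged groups, 10 were OPC groups in which replicate 3 was the highest. In control OPCs, replicate 3 had 376 CPM of Ctsb (others 198 to 235), 214 of Ctsd (96.4 to 122), 16.9 of Ctsh (6.02 to 9.69) and 226 of Ctss (49.8 to 103). In Rag2-/- OPCs it had 368 CPM of Ctsb (218 to 229), 22.5 of Ctsc (4.47 to 7.86), 203 of Ctsd (112 to 120), 24.2 of Ctsh (7.48 to 9.31), 246 of Ctss (39.1 to 94.7) and 34.3 of Ctsz (13.7 to 18.6). The summed microglia markers of these libraries were 872 and 883 CPM, against 186 to 428 in the other control and 175 to 320 in the other Rag2-/- OPC libraries, and their part in these values was not tested.

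In Rag2-/- oligodendrocytes, replicate 3 had 41.1 CPM of Ctsz against 10.1 to 12.3 in the others, with a marker sum of 1149 CPM against 498 to 618. In Rag2-/- OPCs, replicate 2 had 6.67 CPM of Ctsk against 0.47 to 1.80, with a marker sum of 227 CPM inside the range of the others. Control astrocyte replicate 4 had 61.5 CPM of Ctsf against 83.3 to 95.1, and control microglia replicate 1 had 344 CPM of Ctsh against 194 to 235.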

How the results depend on the processing

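Of 78 called cell-type differences of single cathepsins, none reversed under any alternative. Of their values under settings other than a library left out, 456 stayed past the threshold and 12 did not, and with a library left out 1614 did and 64 did not. Without TMM the median over all genes moved from 0.11 to 0.93 for microglia against oligodendrocytes in control mice, from -0.08 to -0.31 against OPCs, from -0.09 to 0.15 against astrocytes, from -0.15 to -1.21 for oligodendrocytes against OPCs, from -0.05 to -0.52 for astrocytes against OPCs and from 0.04 to 0.62 for astrocytes against oligodendrocytes, and small differences moved with it. Cathepsins called lower in oligodendrocytes than OPCs then went from 1 to 5 in control and from 1 to 6 in Rag2-/- mice, and those higher in astrocytes than OPCs from 4 to 1 and from 2 to 0. The share of all genes called without TMM is not given here, so the counts without TMM cannot be set against a background. Ctsk was then no longer at least 4-fold lower in microglia than oligodendrocytes (1 to 0 in both genotypes), and was called lower in microglia than OPCs in Rag2-/- mice (0 to 1, also with DESeq2). Ctsf was no longer lower in microglia than astrocytes in control mice (1 to 0), and of 2 cathepsins lower in astrocytes than oligodendrocytes in control mice 1 was left. As a percent of microglia, Ctsb in control oligodendrocytes was 8.23% without TMM and 15% with it. With no filter, Ctss was called higher in oligodendrocytes than OPCs in Rag2-/- mice (0 to 1) and by sex in OPCs and in astrocytes (0 to 1 each). The share of all genes called in that setting is not given here.

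With 1 library left out, the count of cathepsins called lower in microglia ranged from 0 to 1 against OPCs in Rag2-/- mice and against astrocytes in control mice. For oligodendrocytes against OPCs it ranged from 0 to 1 in both directions in control mice, and from 0 to 3 higher and 1 to 2 lower in Rag2-/- mice. For astrocytes against OPCs it ranged from 1 to 5 higher and 1 to 2 lower in control mice and from 2 to 4 higher in Rag2-/- mice. For astrocytes against oligodendrocytes it ranged from 1 to 3 in both directions in both genotypes. The genotype difference of Ctsk in OPCs, 0.47, was reversed to -0.051 without Rag2-/- replicate 2, with a range of -0.051 to 0.76, and 0.58 without both libraries of pair 3. That of Ctsl in microglia ranged from -0.45 to -0.27, was -0.52 (adjusted p = 0.693) against Rag2+/- controls alone, and passed in none of these.

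Pairing libraries by littermate as a block gave -0.42 for Ctsl in microglia (adjusted p = 0.973) and called no cathepsin by genotype in any cell type, and with the mouse as a block no cell-type call was lost and that of Ctsd given above was the only one gained. Depth limits Ctsk most, with 1 to 14 counts in a microglia library.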
